A study of Mus musculus with 26 samples.

Results

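CpG methylation in epididymal sperm was described along 6 genes, Slc13a4, Mars (Mars1 in current RefSeq naming), Capn11, Pou2f2, Arfgef3 and Tmprss9. The genes were selected on measured values of these same libraries, because the study lists them with methylation windows that differed between sperm of SSCT and control mice in more than one generation. Slc13a4, Mars, Capn11 and Pou2f2 are listed there for transplanted males and their sons, whereas Arfgef3 and Tmprss9 are listed for sons and grandsons. Each gene was given the positions inside its span in the GRCm38.p6 RefSeq table or within 2000 bp of it. Of 2626422 positions with at least 10 reads in any library, 1046 lay in the 6 genes, and of 46140 positions with at least 10 reads in all 26 libraries, 23 did. The 6 genes are among 49939 genes of the table. These 23 positions were in Tmprss9 (10), Pou2f2 (8), Mars (4) and Arfgef3 (1), and Slc13a4 and Capn11 had none.

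Spermatogonial stem cell transplantation (SSCT) puts cultured stem cells of a donor into the testes of an infertile male, which then makes sperm of donor origin. The 3 SSCT F0 mice were W/W-v males carrying DBA/2J donor cells that had been cultured, and the 3 control F0 mice were DBA/2J males; both were sampled at 16 to 18 months of age. The hosts were of another strain background (WBB6F1/J) than the controls, so that the effects of host, culture and transplantation cannot be told apart in that group. The 20 offspring were DBA/2J males of 3 months, 5 each of control F1, SSCT F1, SSCT F2/M (control males crossed with SSCT F1 females) and SSCT F2/P (SSCT F1 males crossed with control females), and the only control for both F2 lines was control F1. The labels call the material epididymal sperm.

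Methylation of cytosine in CpG dinucleotides is copied through cell division by maintenance enzymes that act on both strands, so that a CpG is usually methylated on both strands or on neither. In sperm most CpG-rich promoters are unmethylated and most gene bodies are methylated. Reduced representation bisulfite sequencing (RRBS) reads CpG-rich restriction fragments, and the methylation level of a position is the percentage of its reads that kept their cytosine.

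The offspring libraries carry conflicting names. They are called here by their sample titles, whereas the clustering shown in the study gives the same libraries other group names: the libraries titled SSCT F2/P are SSCT F1 there, those titled SSCT F2/M are control F1, and those titled control F1 and SSCT F1 are the F2 lines. The labels' treatment entries did not separate these namings. Under the study's naming, its comparison of SSCT F1 with control F1 is therefore that of the libraries titled SSCT F2/P with those titled SSCT F2/M. All 6 genes held a called window in that pair, so this pair and the F0 pair, which chose 4 of the genes, are given as a description, with no test. Under the same naming, the libraries titled SSCT F1 or control F1 against those titled SSCT F2/M are its comparisons of the F2 lines. The study lists such a comparison for Arfgef3 and Tmprss9, so calls there may have chosen these genes too and are no separate support. Single CpGs are named because they were called, so that no further test over mice is given for them. Every value of the offspring below holds for the libraries of that title, and its generation depends on which naming is right.

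Among the 23 libraries other than SSCT F0, 45609751 to 87705464 reads fell on 1995475 to 2232455 positions. SSCT F0 replicate 3 had 75091248 reads on only 305946 positions, with a median of 392 reads at positions with at least 10, and SSCT F0 replicate 2 had 57661045 reads on 1123552. The protocol in the labels names a lower DNA input for 3 libraries, whose numbers are those of the 3 SSCT F0 files. Of 82246 positions tested in F0, 0.874% had a level between 10% and 90% in SSCT F0 replicate 3 and 6.03% in replicate 2, against 12.1% in replicate 1 and 11.9% to 13% in the 23 other libraries. At H19, a gene methylated on the paternal allele and hence in sperm, the level was 78.9% to 95.7% in 25 libraries, but 0.113% in SSCT F0 replicate 3, over 2 positions. The median level over genes that are methylated on the maternal allele only and so unmethylated in sperm was 0% to 6.86% in all 26 libraries. The highest of these 9 genes was Peg10, read over its whole span, at up to 53.2%.

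In SSCT F0 against control F0, 46 positions of the 6 genes had at least 10 reads in all 6 mice, and 9 of them were called, 8 lower and 1 higher in SSCT F0. A CpG was called where a likelihood ratio test on the reads summed over the mice of each group gave a q-value below 0.01. The levels, weighted by reads, also had to be more than 25 percentage points apart. Over all 82246 CpGs 5.83% were called. Windows of 1000 bp were called in 6 of 13 cases, 1 in each gene and each lower in SSCT F0, against 10.0% of all windows; since windows of this contrast chose 4 of the 6 genes, nothing is read from these counts. Of the 6 windows, 4 held 1 covered position and 2 held 2 positions. The smallest difference among called CpGs was 46.0 percentage points in Tmprss9 and the largest among CpGs below the threshold was 20.3 percentage points in Pou2f2.

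Counts of calls between the offspring are given beside the shares over all features. Most lay above these shares, but the genes were chosen on such calls, so nothing is read from this. In SSCT F1 against control F1, 1 of 222 CpGs of the 6 genes was called against 0.462% of all CpGs, and 1 of 48 windows against 0.415%. In SSCT F2/M against control F1, 6 of 258 CpGs (all CpGs, 0.420%) and 1 of 52 windows (0.363%) were called. In SSCT F2/P against control F1, 9 of 274 CpGs (all CpGs, 0.430%) and 4 of 57 windows (0.392%) were called. In SSCT F2/P against SSCT F2/M, the pair that the study's naming makes its first-generation comparison, 7 of 255 CpGs (0.404%) and 7 of 55 windows (0.368%) were called, 3 windows higher and 4 lower. In SSCT F1 against SSCT F2/M, 2 of 201 CpGs (0.439%) and 1 of 46 windows (0.369%) were called. Comparisons with control F1 share its 5 mice, and they were not counted against each other. A call treats reads as independent, and called CpGs without overlap between the mice were 0 of 1, 0 of 6 and 0 of 9 in the 3 comparisons with control F1, where 0.0414%, 0.0426% and 0.0387% of all CpGs were called so, and 0 of 2 in SSCT F1 against SSCT F2/M (0.0405%). An F test that scales by the spread between mice called 0 CpGs of the 6 genes in each of these 3 comparisons, and 0 of all CpGs. At an unadjusted p below 0.05 it had 18 of 222, 20 of 258 and 20 of 274, where 7.68%, 7.70% and 7.81% of all CpGs were, so that these counts are near the background.

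**Figure D1:**
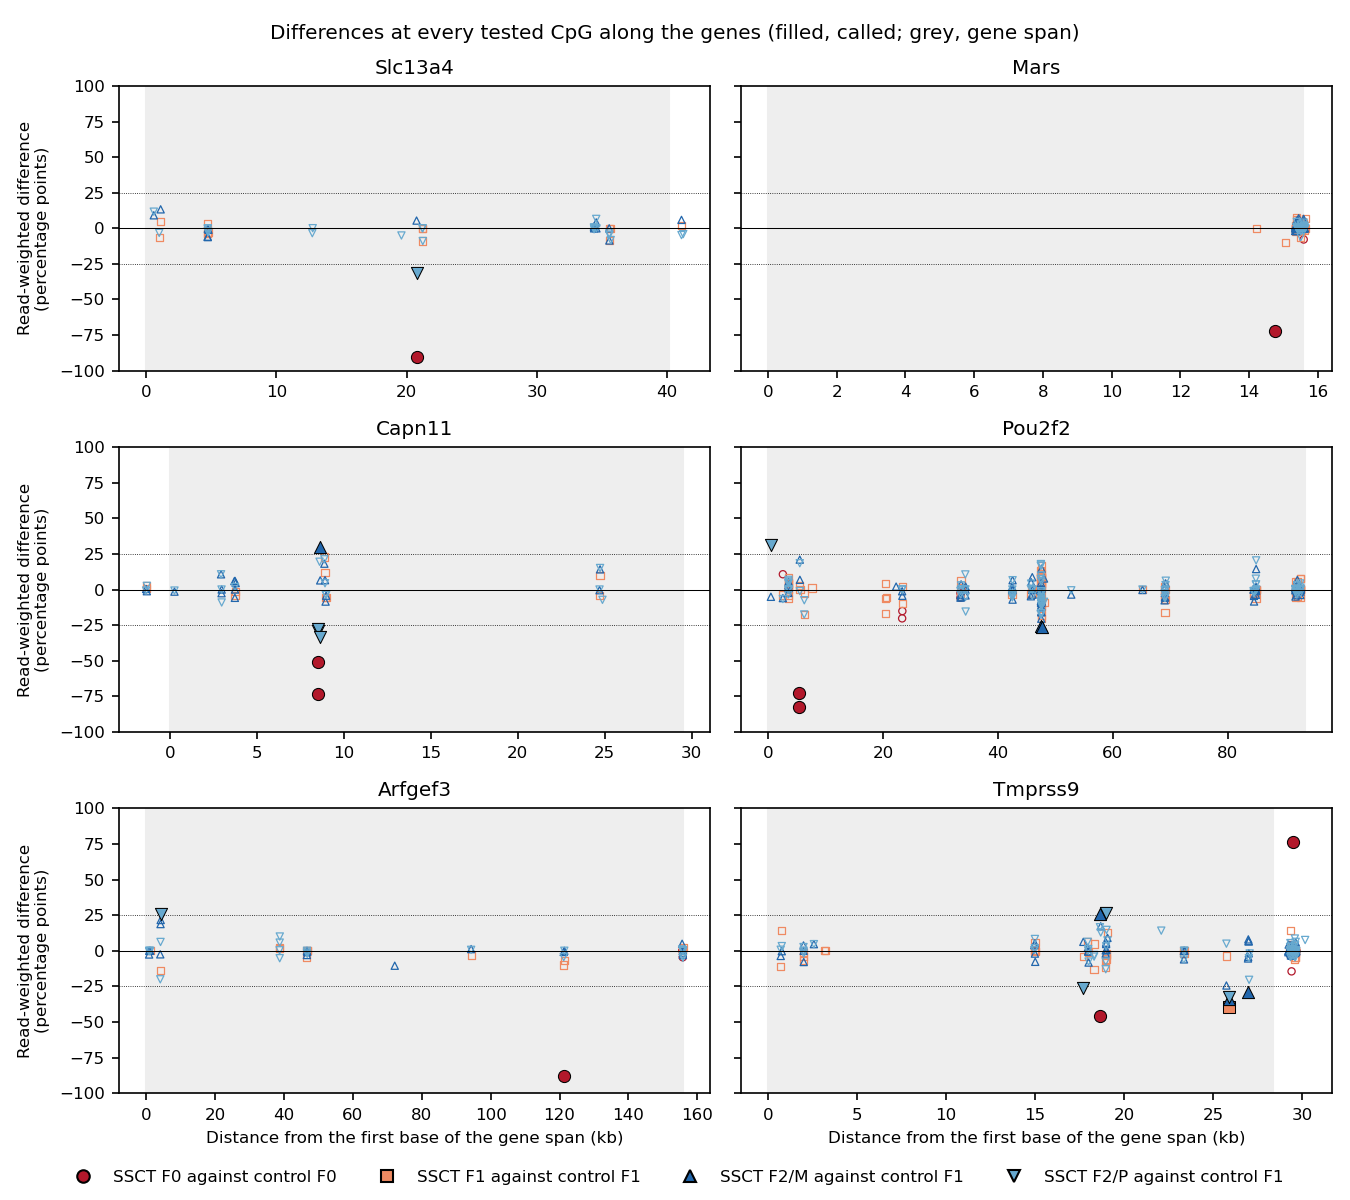
Read-weighted difference in methylation (percentage points, vertical axis) at every tested CpG along each gene, with the distance from the first base of the gene span in kilobases on the horizontal axis. Filled symbols are called CpGs, open symbols are the others, grey marks the gene span and dotted lines mark 25 percentage points; 8 of the 9 called F0 CpGs lie below zero and most other CpGs lie near it.

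The called CpGs of F0 leaned on 1 library. SSCT F0 replicate 3 was at exactly 0% or 100% at all 9 of them, and at 42 of the 46 positions tested in the genes, 41 of these at 0%. It supplied 82.9% to 90.5% of the SSCT F0 reads at these 9 CpGs. Only the CpGs of Slc13a4 and Mars had levels without overlap between the groups, 2 of 46, where 1.26% of all tested CpGs were called with no overlap. With replicate 3 left out at the same positions, 5 of the 9 CpGs were still called and 3 of the 9 had a difference of the opposite sign.

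Slc13a4 encodes a sodium-dependent sulfate transporter, which carries sulfate into cells. Its called CpG was position 35288720 of chromosome 6 (plus strand), inside the gene span of 35267953 to 35308126, and was the only position of the gene read in all F0 mice. Its level was 0%, 0% and 0% in SSCT F0 (15, 111 and 657 reads) and 100%, 100% and 73.9% in control F0 (26, 13 and 23 reads). The groups did not overlap, and the difference was the same with each SSCT F0 library left out, at -90.3 percentage points. In the offspring the level was 100%, 100%, 100%, 88.4% and 100% in control F1 and 100% in each of the 5 SSCT F2/M mice. In SSCT F2/P it was 100%, 50%, 6.25%, 60.9% and 100%. So 3 of 5 SSCT F2/P mice were below all mice of both other sets, and 2 were at the same full level. In SSCT F1 it was 30%, 100%, 100% and 100% in the 4 mice with at least 10 reads. The direction was thus the same in F0 and in SSCT F2/P. Yet no offspring mouse was at 0%, and the mean of SSCT F2/P, 63.4% ± 39.1 (SD, n = 5), had a spread wider than its distance from the 97.7% ± 5.19 (SD, n = 5) of control F1. The opposite strand of this CpG had fewer than 10 reads in every library with a value on this strand.

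**Figure D2:**
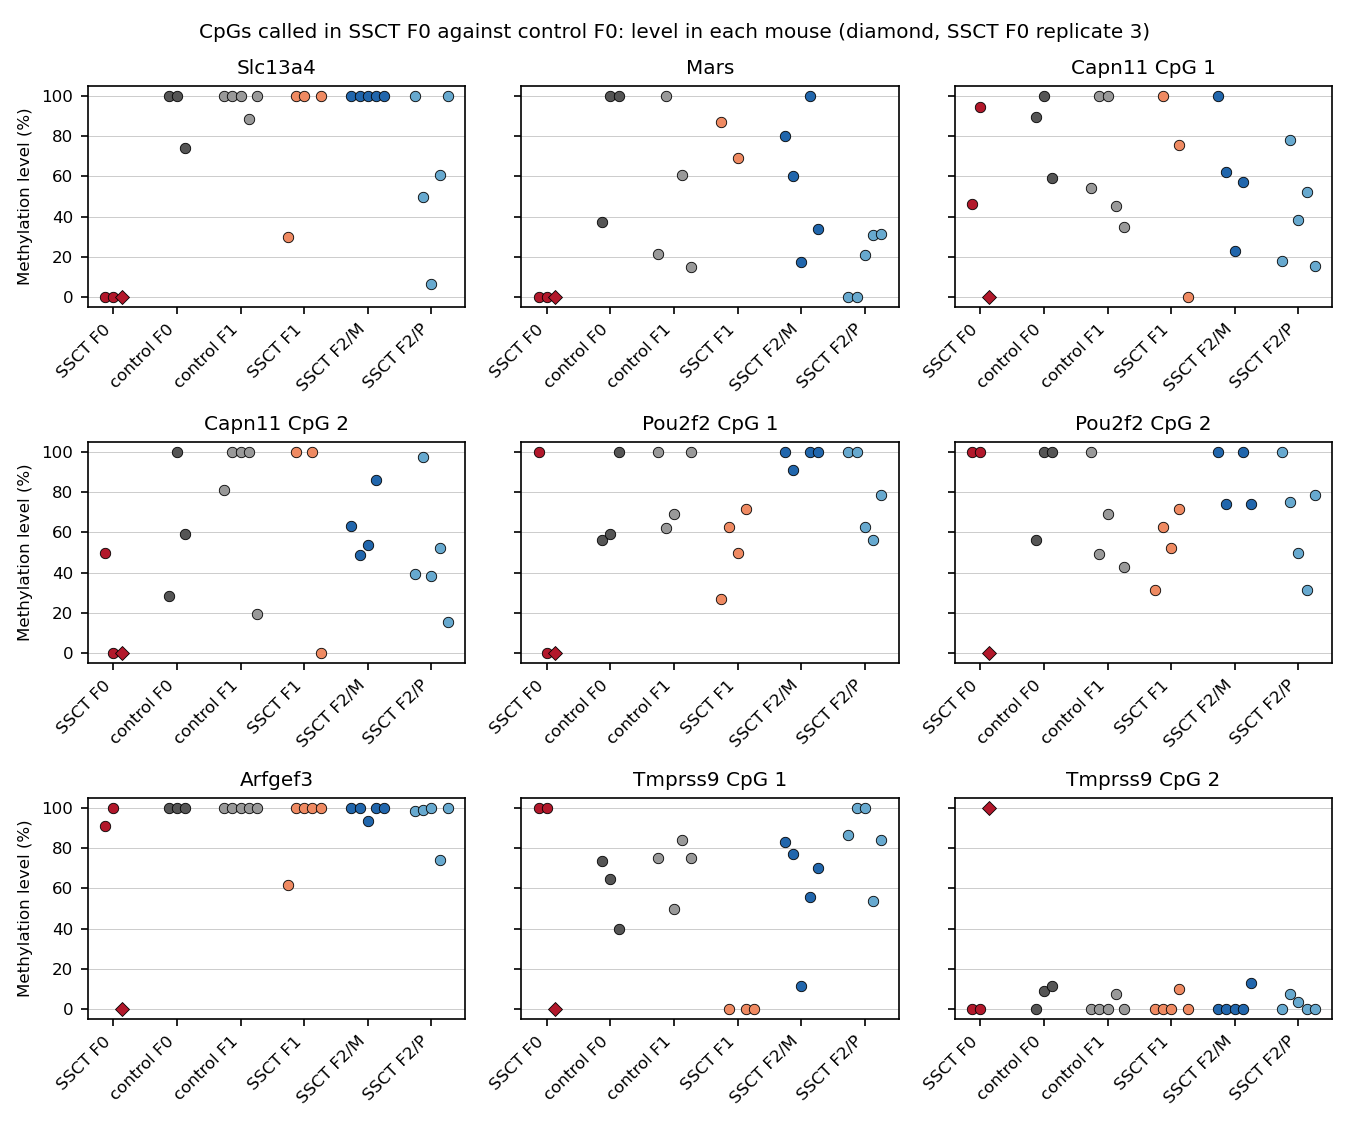
Methylation level (percent, vertical axis) in each mouse at the 9 CpGs called in SSCT F0 against control F0, with the 6 groups by sample title on the horizontal axis; a diamond marks SSCT F0 replicate 3, and mice with fewer than 10 reads are left out. SSCT F0 is at 0% in all mice in Slc13a4 and Mars only, and in Arfgef3 and the second Tmprss9 CpG the diamond alone stands apart.

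Mars encodes the cytosolic methionyl-tRNA synthetase, which loads methionine onto its transfer RNA in every cell. Its promoter, which runs from 250 bases before to 50 bases after the start of the gene, lies on the minus strand at chr10:127311737-127312036 of GRCm38.p6 (RefSeq). It is shown because it holds 4 of the 5 positions of the gene tested in F0, and CpGs with at least 10 reads in any library are in capitals.
Mars promoter: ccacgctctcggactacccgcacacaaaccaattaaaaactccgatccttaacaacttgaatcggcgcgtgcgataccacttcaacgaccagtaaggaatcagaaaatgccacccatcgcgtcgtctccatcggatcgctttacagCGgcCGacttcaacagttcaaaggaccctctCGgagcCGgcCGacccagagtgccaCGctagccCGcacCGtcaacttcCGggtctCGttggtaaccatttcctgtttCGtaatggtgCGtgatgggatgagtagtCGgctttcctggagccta
Of 27 CpGs in this sequence, 13 were read, at 20 positions over both strands. Of 418 values over all libraries, 392 were under 10% and 375 were 0%, and the highest was 38.7%. The 4 positions of Mars read in all 26 libraries were in this promoter.

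The called CpG of Mars was position 127310987 of chromosome 10 (plus strand), inside the gene span of 127296221 to 127311786 and outside that promoter. Its level was 0%, 0% and 0% in SSCT F0 (12, 94 and 679 reads) and 37.5%, 100% and 100% in control F0 (16, 10 and 10 reads). The groups did not overlap, with only 10 to 16 reads in each control. In SSCT F2/P the level was 0%, 0%, 20.8%, 30.8% and 31.2%, and in SSCT F2/M 80%, 60.5%, 17.2%, 100% and 34%. It was thus lower in F0 and lower in this pair, which chose the gene, though replicate 3 of SSCT F2/M was below 3 of the 5 SSCT F2/P mice. Control F1 gave 21.4%, 100%, 60.9% and 15% in 4 mice and SSCT F1 gave 87.2% and 69.0% in 2 mice. The comparisons with control F1 could not test this CpG. On the opposite strand, 2 mice of SSCT F2/P had 100% and 0% and 2 mice of SSCT F2/M had 0% and 100%.

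Capn11 encodes a calpain, a calcium-dependent cysteine protease, found mainly in testis. Its called CpGs lay close to each other in 1 window on chromosome 17, inside the gene span of 45630191 to 45659709. At position 45638684 (plus strand) the level was 46.2%, 94.7% and 0% in SSCT F0 and 89.7%, 100% and 59.1% in control F0. At position 45638695 of the same strand it was 50%, 0% and 0% in SSCT F0 and 28.2%, 100% and 59.1% in control F0. Both CpGs overlapped between the groups. Leaving out replicate 3 of SSCT F0 moved the differences from -73.1 and -50.9 to -0.980 and -39.4 percentage points.
In the offspring, position 45638695 had 39.4%, 97.4%, 38.2%, 52.2% and 15.4% in SSCT F2/P and 81.2%, 100%, 100%, 100% and 19.2% in control F1, called lower in SSCT F2/P. Position 45638684 was likewise called lower in that comparison, with means of 40.5% ± 26 (SD, n = 5) and 66.8% ± 31.0 (SD, n = 5). The sets overlapped at both.
On the minus strand, position 45638831 had 40%, 46.2%, 61.2%, 6.25% and 50% in SSCT F2/P. The SSCT F2/M mice had 72.1%, 100%, 81.8%, 57.1% and 82.5%, and the control F1 mice 52%, 100%, 96.8%, 81.5% and 54.2%. It was called lower in SSCT F2/P in both comparisons, with means of 40.7% ± 20.8 (SD, n = 5) against 76.9% ± 22.8 (SD, n = 5) in control F1, and the sets overlapped. On the opposite strand the means lay closer together, at 62.1% in 3 SSCT F2/P mice, 69.0% in 4 control F1 mice and 74.8% in 3 SSCT F2/M mice. Only 1 SSCT F0 mouse had at least 10 reads at position 45638831, replicate 1 at 100%, beside 47.8%, 100% and 68.1% in control F0. The window called in F0 and in SSCT F2/P against SSCT F2/M thus rested on different CpGs, and F0 gave no comparison of the minus-strand CpGs. Position 45638794, on the minus strand, was called higher in SSCT F2/M than in control F1 with means of 61.1% ± 18.7 and 38.7% ± 26.3 (SD, n = 5 each), and the sets overlapped.

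Pou2f2 encodes Oct-2, a transcription factor of B cells that binds an octamer motif through its POU domain. It was the gene with most data, 444 positions with at least 10 reads in any library in a span of chromosome 7 from 25087350 to 25180797. The F0 calls were at positions 25092709 and 25092746 (plus strand). The first had 100%, 0% and 0% in SSCT F0 and 56.2%, 59.5% and 100% in control F0. The second had 100%, 100% and 0% in SSCT F0 and 56.2%, 100% and 100% in control F0, and its difference went from -82.8 to 7.61 percentage points when SSCT F0 replicate 3 was left out. The groups overlapped at both. These CpGs had fewer than 10 reads in 1 or more mice of each offspring set but SSCT F2/P, so that no offspring comparison tested them, and SSCT F2/P had 100%, 100%, 62.9%, 56.2% and 78.4% at the first.
The offspring call was in another window, at position 25087850 (minus strand), and in the opposite direction. Its level was 68.8%, 52.8%, 80%, 52.2% and 68% in SSCT F2/P. The SSCT F2/M mice had 11.8%, 12%, 50%, 19.4% and 45.2%, and the control F1 mice 75%, 59.5%, 14.8%, 10.5% and 9.30%. SSCT F2/P was above all 5 SSCT F2/M mice, the only call of that pair without overlap, where 0.0341% of all CpGs were called so. It overlapped with control F1, where 2 mice were within the range of SSCT F2/P. In F0 this CpG had 75% in SSCT F0 replicate 1, no reads in the other SSCT F0 mice and 74.1%, 76.1% and 42.9% in control F0. Between SSCT F2/M and control F1, the neighbouring positions 25134901 and 25134932 were called lower. At 25134901 SSCT F2/M had 73.7%, 33.3%, 45%, 31.6% and 48.3% and control F1 75%, 63.5%, 66.7%, 66% and 75.6%. The sets overlapped through 1 SSCT F2/M mouse. On the opposite strand of this CpG, 4 mice of each set had means of 19.7% and 45%, in the same direction. At 25134932 the means were 57.0% ± 29.1 and 74.5% ± 13.1 (SD, n = 5 each), and the opposite strand went the other way, with 67.6% in SSCT F2/M and 43.0% in control F1 over 5 mice each.

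Arfgef3 (also BIG3) belongs to the family of exchange factors that load GTP onto ARF proteins, the switches of vesicle traffic. Its promoter lies on the minus strand at chr10:18743709-18744008 of GRCm38.p6 (RefSeq), from 250 bases before to 50 after the start. It is shown because 8 of the 9 positions of the gene tested in F0 are in it, with the CpGs read in any library in capitals.
Arfgef3 promoter: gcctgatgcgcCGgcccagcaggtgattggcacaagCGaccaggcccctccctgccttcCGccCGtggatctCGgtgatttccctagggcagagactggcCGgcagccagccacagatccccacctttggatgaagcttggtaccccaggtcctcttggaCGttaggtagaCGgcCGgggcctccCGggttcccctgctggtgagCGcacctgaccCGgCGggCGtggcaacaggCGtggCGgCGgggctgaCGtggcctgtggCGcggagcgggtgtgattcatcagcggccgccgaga
Of its 25 CpGs 19 were read, at 23 positions, and 446 of 480 values were under 10%. The highest values were on the plus strand of 1 CpG, position 18743791, with 26.5% and 61.5% in 2 SSCT F0 mice and 21.4%, 9.33% and 4.76% in control F0. Its opposite strand was at 0% in all 6 F0 mice. Values of 10% or more were read at other promoter positions too, among them up to 45.8% at 18743948 and up to 39.0% at 18743823, where control F1 had a mean of 18.8% and SSCT F1 one of 25.1%. The promoters listed for Slc13a4, Capn11, Pou2f2 and Tmprss9 had no position with at least 10 reads. Those of Pou2f2 (25132411 to 25132710) and Tmprss9 (80879566 to 80879865) lie inside the gene spans, away from the span ends. The upstream end of the Pou2f2 span was read. In its window from 25179001 to 25180000 the means over 22 positions were 1.66% in SSCT F2/M and 2.20% in control F1.

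The called F0 CpG of Arfgef3 was position 18709220 of chromosome 10 (plus strand), in the gene body of a span from 18588011 to 18743758. It had 91.3%, 100% and 0% in SSCT F0 (46, 34 and 552 reads) and 100% in each control F0 mouse. Without SSCT F0 replicate 3, the only SSCT F0 mouse far from the controls, the difference was -5 percentage points instead of -88.0 and the CpG was not called. All 20 offspring were read here, and 15 of them were at 100%. The lowest were SSCT F1 replicate 1 at 61.9% and SSCT F2/P replicate 4 at 73.9%. Each offspring set was lower than control F1, whose 5 mice were at 100%, by 9.94 points or less, and none was called.
The offspring call was elsewhere, at position 18660136 (plus strand), with 0%, 28.6%, 36.4%, 65.7% and 54.1% in SSCT F2/P and 20.6%, 17.6%, 6.98%, 0% and 11.1% in SSCT F2/M. SSCT F1 had 23.1%, 92.9%, 27.3%, 0% and 40.9%, and was called higher than SSCT F2/M. Under the study's naming this is an F2 line against control F1, so that this call may also have chosen the gene. The 3 control F1 mice with at least 10 reads had 0%, 39.4% and 78.7%, a wider range than in SSCT F2/P or SSCT F2/M. Position 18592241 (minus strand) was called higher in SSCT F2/P than in control F1, with 54.5%, 63.8%, 88.9%, 60% and 100% against 50%, 35.7%, 71.4%, 40.6% and 42.9%. The sets overlapped through 1 control F1 mouse. This CpG had no reads in SSCT F0 replicate 3.

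Tmprss9 encodes polyserase-1, a membrane-anchored enzyme with several serine protease domains. It had 237 positions with at least 10 reads in any library, in a span of chromosome 10 from 80871117 to 80899495 and its flanks. Position 80889764 (minus strand) was called lower in F0, with 100%, 100% and 0% in SSCT F0 and 73.7%, 64.7% and 40% in control F0. When SSCT F0 replicate 3 was left out it was called higher, by 39.2 percentage points instead of lower by 46.0, so that its direction rested on that library. On the opposite strand of this CpG, at position 80889763, SSCT F0 replicates 1 and 2 had 70% and 97.3% and control F0 100%, 89.2% and 69.2%. SSCT F2/M was called higher than control F1 there, with 88.9%, 69.2%, 89.2%, 0% and 70.2% against 47.9%, 6.67%, 29.6%, 70% and 60%, and the sets overlapped. Its minus strand went the other way, with means of 59.5% in 5 SSCT F2/M mice and 71% in 4 control F1 mice. The only CpG called higher in F0, position 80900588 (minus strand) in the flank after the span, had 0%, 0% and 100% in SSCT F0 and 0%, 9.17% and 11.4% in control F0. All 20 offspring were at 12.9% or less there.

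One CpG of Tmprss9 was called in each of the 3 comparisons with control F1. At position 80897037 (minus strand) control F1 had 23.8%, 28%, 0%, 74.2% and 90.5%, SSCT F1 13.2%, 0%, 1.59%, 0% and 0%, SSCT F2/M 34%, 0%, 0%, 0% and 0%, and SSCT F2/P 2.86%, 17.9%, 21.7%, 0% and 0%. The calls share the control F1 mice, of which 2 were above 70% and 1 was at 0%. The other two, at 23.8% and 28%, were above all SSCT F1 and SSCT F2/P mice and below 1 SSCT F2/M mouse. The older groups had 0%, 49.1% and 0% in control F0 and 21.9% and 0% in SSCT F0. On the opposite strand, the 3 control F1 mice with at least 10 reads had 0%, 26.3% and 0%.

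Leaving out SSCT F0 replicate 3 opened 217 CpGs of the 6 genes to the F0 comparison, of which 39 were called, 15 higher and 24 lower, against 5.83% of all 599350 CpGs then tested. By gene, 15 of 79 were called in Tmprss9, 13 of 75 in Pou2f2, 5 of 12 in Slc13a4, 4 of 22 in Arfgef3, 1 of 25 in Mars and 1 of 4 in Capn11. Since a part of these positions had chosen the genes, the counts are a description. All 5 called CpGs of Slc13a4 were lower in SSCT F0. At the 4 other than position 35288720, SSCT F0 replicate 2 alone was below control F0, with 0% at 35268544 and 35269069 and 50% and 49.1% at 35272675 and 35272690. SSCT F0 replicate 1 had 100%, 57.9%, 100% and 100% there, not below the lowest control F0 mouse.
The called CpGs with no overlap between 2 and 3 mice numbered 16 of 217, against 2.62% of all CpGs, and 11 of them were in Tmprss9. Of these, 7 lay within 47 bases, from 80898081 to 80898127 on the plus strand, and were all higher in SSCT F0. Over these 7 CpGs SSCT F0 had 77.1% and 96.1% and control F0 43.6%, 20.5% and 21.2%, with 18 to 55 reads per position and mouse. The control F1 mice ranged from 0% to 39.6% and the SSCT F1 mice from 20.2% to 52.9%. SSCT F2/M ranged from 12.6% to 41.6% and SSCT F2/P from 15% to 30.4%. Over the 7 CpGs, no mouse of the 18 offspring with reads reached the lower of the SSCT F0 values. Position 80898097, 1 of the 7, was called lower in SSCT F2/M than in control F1, opposite to its 47.6 points in F0. SSCT F2/M had 56%, 0%, 0%, 0% and 0% there and control F1 20.7%, 54.3%, 61.5%, 63.6% and 0%, and the sets overlapped. The window of the 7 CpGs differed by -2.75 points in that comparison and was not called. The 7 CpGs had nearly the same read number in a mouse, as neighbours on the same reads do, and are not independent of each other.
Another Tmprss9 CpG, position 80888830 (plus strand), was lower in F0 and in an offspring set. It had 22% and 27.6% in SSCT F0, 100%, 87.6% and 63.6% in control F0, 18.5%, 48%, 12.8%, 82.8% and 52.1% in SSCT F2/P, and 80.5%, 81.1%, 41.3%, 80% and 82.1% in SSCT F2/M. Control F1 had 39.8%, 100%, 74.6%, 100% and 51.2%, and overlapped with SSCT F2/P. With SSCT F2/M, it is a CpG that chose the gene. On the opposite strand the means over 4 mice each were 50.3% in SSCT F2/P and 53.2% in SSCT F2/M. These CpGs and windows were singled out after their values were seen.

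**Figure D3:**
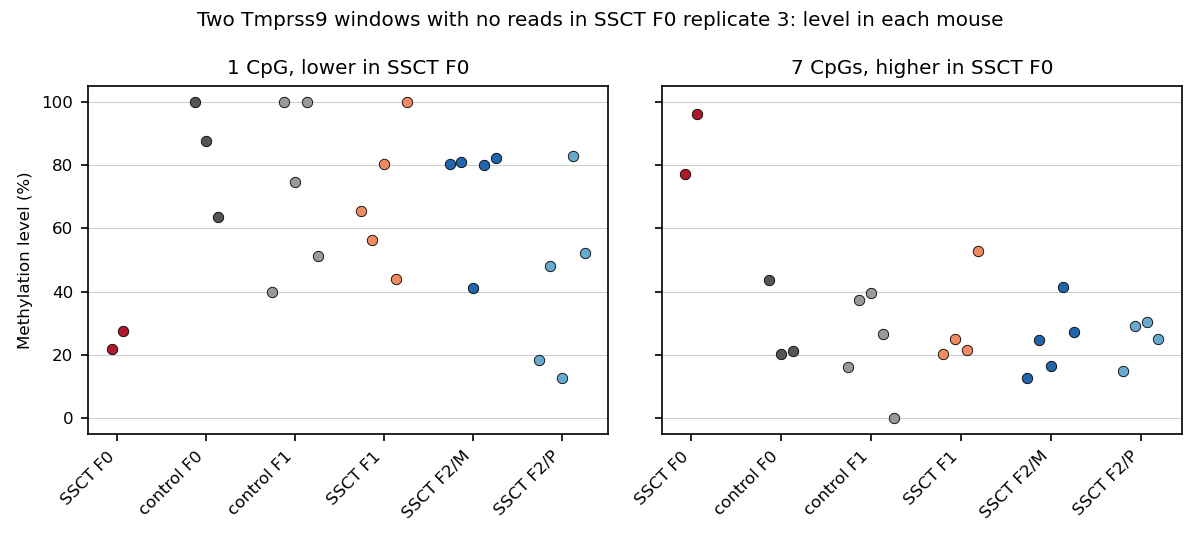
Methylation level (percent, vertical axis) in each mouse by group title at Tmprss9 position 80888830 (left) and over the 7 neighbouring CpGs from 80898081 (right), which have no reads in SSCT F0 replicate 3. On the left SSCT F0 lies below all control F0 mice and SSCT F2/P reaches down to 12.8%; on the right SSCT F0 lies at 77.1% and 96.1%, above every other mouse.

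The same CpGs were then followed from F0 to the offspring, over all positions tested in both and not only the called ones. The F0 differences used here include SSCT F0 replicate 3, which was at 0% at 41 of the 46 positions tested in the genes. It also supplied most SSCT F0 reads at the called CpGs, so that the sign in F0 leans on that library. The signs were not counted without it. In SSCT F1 against control F1, 23 CpGs of the 6 genes were also tested in F0, and 12 had a difference other than 0 in both. Of these, 5 had the same sign (41.7%), against 50.5% of all CpGs tested in both. In SSCT F2/M against control F1 it was 10 of 15 (66.7%; all CpGs, 49.7%) and in SSCT F2/P against control F1 9 of 15 (60%; all CpGs, 49.9%). In the pair of SSCT F2/P and SSCT F2/M it was 5 of 15 (33.3%; all CpGs, 50.7%), and in SSCT F1 against SSCT F2/M 6 of 12 (50%; all CpGs, 50.8%). These counts are small and CpGs of the same fragment share reads, so that no test was made.
Where both differences were at least 10 percentage points, 3 CpGs remained in SSCT F2/P against control F1, the Slc13a4 CpG and the 2 plus-strand CpGs of Capn11, all lower in both. In the comparisons of SSCT F1 and SSCT F2/M with control F1, 0 remained. Without SSCT F0 replicate 3 the F0 difference of Capn11 position 45638684 was -0.980 points, below this size. Those of Capn11 position 45638695 and of the Slc13a4 CpG were then -39.4 and -90.3 points. In the pair of SSCT F2/P and SSCT F2/M 3 remained, of which the CpGs of Slc13a4 and Mars were lower in both and 1 Tmprss9 CpG differed in sign. This Tmprss9 CpG, position 80889764, was higher in SSCT F0 by 39.2 points when replicate 3 was left out, the same sign as in that pair. With SSCT F0 replicate 3 included, Tmprss9 and Pou2f2 had no CpG with the same sign at this size in any offspring comparison. For Tmprss9 this says little, because its CpGs shared with the comparisons with control F1 all lay after the gene span, from 80900528 to 80900793. The F0 window means there were 3.52% and 1.86%. Position 80888830, in the span, was not tested with SSCT F0 replicate 3. Without it the F0 difference was -58.7 points, and that of SSCT F2/P against control F1 was -26.3. The single Arfgef3 position tested in both, lower by 88.0 points in F0, differed by less than 10 points in the offspring. No CpG called in F0 with SSCT F0 replicate 3 included was called in SSCT F1 or in SSCT F2/M against control F1. Most of these CpGs were not tested there. In SSCT F1 against control F1 only the Arfgef3 CpG and Tmprss9 position 80900588 were tested. In SSCT F2/M against control F1 the Slc13a4 CpG was tested as well. Of the 9 called F0 CpGs, 3 were called in SSCT F2/P against control F1 (all CpGs, 0.430%), those of Slc13a4 and Capn11. The Arfgef3 CpG and Tmprss9 position 80900588 were tested and not called, and the rest were not tested. In SSCT F2/P against SSCT F2/M 2 were called (all CpGs, 0.404%), those of Slc13a4 and Mars. The CpGs of Arfgef3 and Tmprss9 were tested and not called, and the rest were not tested. All these calls were in the direction of F0, but the genes were chosen on such calls, so nothing is read from the counts.

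The strands of the same CpG gave a measure of spread within a library. Among partly methylated CpGs (mean of the strands from 20% to 80%, at least 10 reads on each), the median difference between the strands of a CpG of the 6 genes was 24.2 to 51.7 percentage points in the 23 libraries other than SSCT F0, over 20 to 40 CpGs a library, and 38.4 to 45 over all CpGs. Choosing CpGs by the mean of the strands takes in those methylated on 1 strand only. The spread between mice is given as SD and range, which are other measures than a difference between strands, so that the sizes are not compared. At the 59 positions of the 6 genes with a mean level from 20% to 80% in control F1, the median SD between its 5 mice was 18.1 and the median range 47.2 percentage points, and over all such positions of the series 20.9 and 51.1. Of the called CpGs in the offspring pairs, 10 calls had a reading of the opposite strand in at least 3 mice of each set. There the difference had the same sign on the opposite strand in 6 of 10, and exceeded 25 points in the called direction in 1. Its median in the called direction was 1.77 points, against 29.5 points on the called strand.

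**Figure D4:**
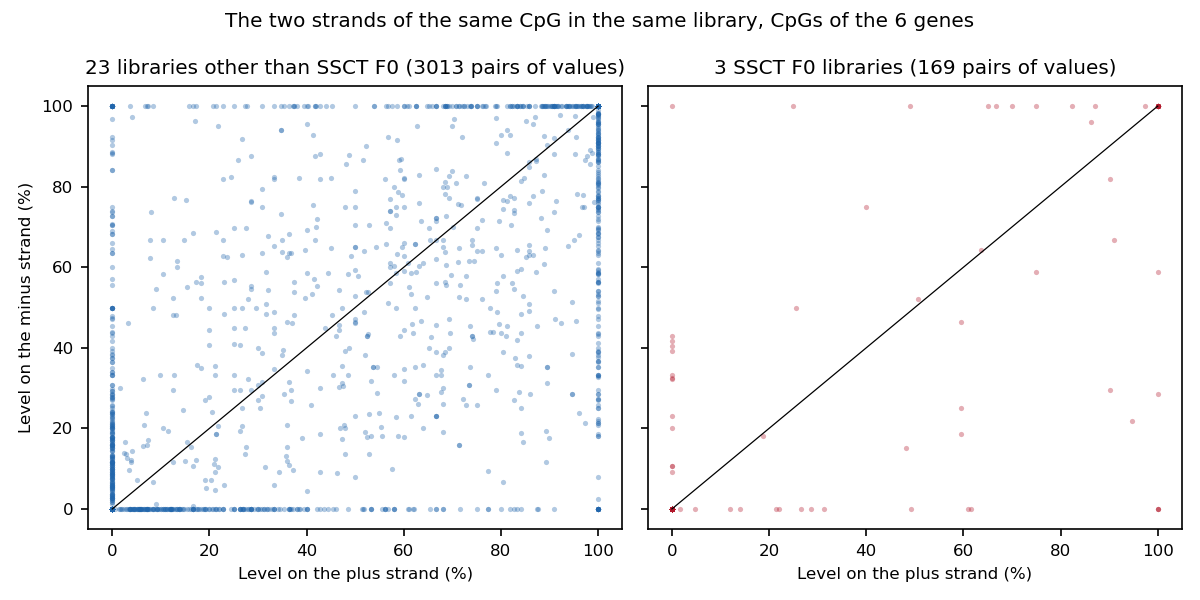
Methylation level (percent) on the plus strand (horizontal axis) and on the minus strand (vertical axis) of the same CpG in the same library, for CpGs of the 6 genes with at least 10 reads on each strand, in 23 libraries (left) and in the 3 SSCT F0 libraries (right). The line marks equal levels; many points lie far from it, and the median difference at partly methylated CpGs was 24.2 to 51.7 percentage points in the libraries on the left.

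With reads summed over the positions read in all 20 offspring, Slc13a4 was at 94.5% to 97.5% as set means (7 positions), Capn11 at 91.0% to 93.6% (9 positions), Arfgef3 at 76.3% to 83.1% (10 positions), Pou2f2 at 34.1% to 39.6% (70 positions), Tmprss9 at 31.7% to 39.3% (44 positions) and Mars at 0.0633% to 1.88% (10 positions). Of the 44 positions of Tmprss9, 28 had a mean under 20%, 12 a mean over 80% and 4 a mean between. Of the 70 positions of Pou2f2, 29, 18 and 23 did.
Gene levels of both F2 sets were compared with control F1 by exact permutation tests over mice, two-sided, with Benjamini-Hochberg adjustment over 12 tests. At 5 against 5 mice the smallest p is 0.00794, so that a single gene could not pass 0.05 after adjustment even with complete separation, and the tests say nothing of stability. The lowest adjusted p was 0.190 (exact permutation test) for Mars in SSCT F2/M, at 1.66% ± 0.700 against 0.351% ± 0.327 (SD, n = 5 each). The SSCT F2/M mice ranged from 0.812% to 2.48% and control F1 from 0% to 0.833%, and the groups overlapped by 1 mouse. Slc13a4 in SSCT F2/P was at 83.1% ± 5.56 against 87.7% ± 4.23 (SD, n = 5 each) over 23 positions (exact permutation test, adjusted p = 0.698). SSCT F1 had the highest set mean in Tmprss9 and the lowest in Pou2f2, and its gene levels are given as a description. In the pair of SSCT F2/P and SSCT F2/M, which chose the genes, the mice did not overlap in Mars, at 0.489% to 1.77% in SSCT F2/P and 1.99% to 6.07% in SSCT F2/M over 27 positions. This separation needed position 127310987, the called CpG that chose the gene. Over the other 26 positions the mice overlapped, at 0% to 1.79% in SSCT F2/P and 0.719% to 4.80% in SSCT F2/M.

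**Figure D5:**
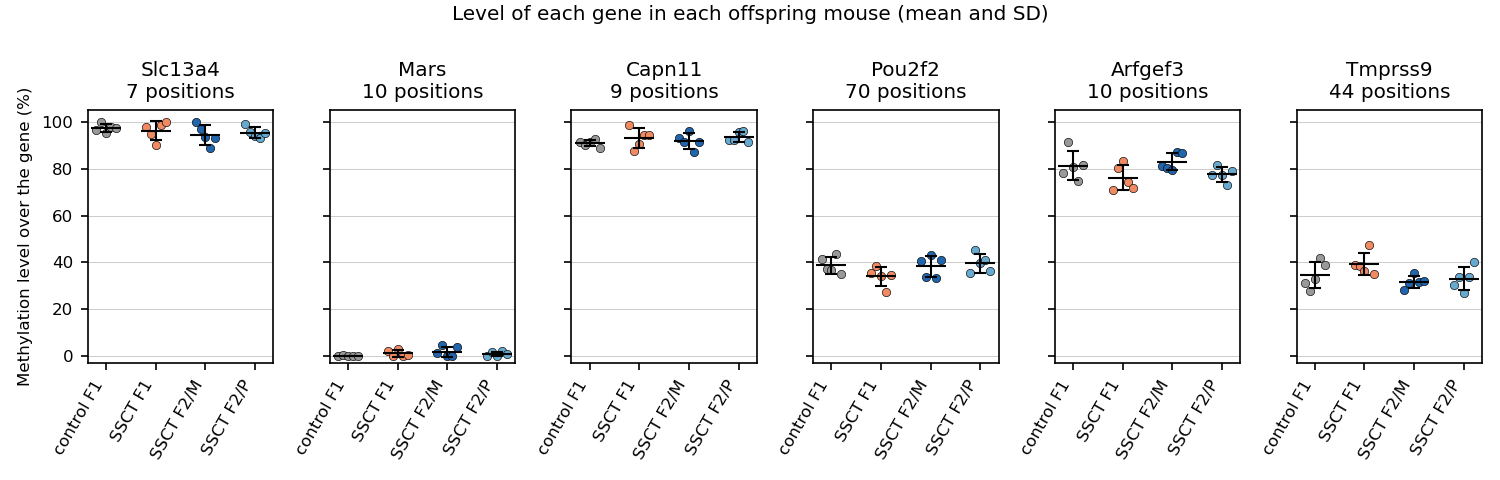
Methylation level (percent, vertical axis) of each gene in each of the 20 offspring mice by sample title, with reads summed over the positions read in all of them; horizontal bars are means and error bars SDs of 5 mice. The sets overlap in every gene, from Mars near 0% to Slc13a4 above 88%.

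Related genes were counted at the same thresholds. In F0, 6 of 24 CpGs of membrane-anchored serine proteases other than Tmprss9 were called, 6 of 56 of ARF exchange factors, 3 of 63 of calpains, 3 of 123 of POU domain genes, 1 of 56 of cytosolic aminoacyl-tRNA synthetases and 1 of 10 of the Slc13 family, with medians of -2.81 points for the serine proteases and 0 for the other lists, beside 5.83% of all CpGs. In SSCT F1 against control F1, 4 of 170 CpGs of the serine proteases and 4 of 321 of the calpains were called, and 0 in the other lists. In SSCT F2/P against control F1, 3 of 378 calpain CpGs were called, all lower, and 0 in the other lists. In SSCT F2/M against control F1, 5 of 360 calpain CpGs were called, 4 of them higher, and 1 each in POU domain genes, ARF exchange factors and serine proteases. Only Pou2f2 and Tmprss9 had enough positions in all 26 libraries to be compared with other genes across libraries. For Tmprss9 these were 10 positions in the flank after the gene span, not in the gene body. Their level was near the floor, 9.60% in SSCT F0 replicate 3 and 0% to 2.95% in the other libraries. The levels most like it were those of Zfp667, Gm6410 and Gpr83 (Pearson r of 0.892, 0.876 and 0.875 over 26 libraries), but without SSCT F0 replicate 3 these were 0.502, 0.553 and 0.410. Those most like Pou2f2 were Vwa1, Arhgap26 and Gm52902 (r of 0.668, 0.631 and 0.594; without that library 0.615, 0.570 and 0.528). The libraries share depth and base composition, so that these values are a description.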

How the data were processed

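RRBS libraries of 26 mice were analysed, grouped by sample title. Per the submitters' processing notes the tools were FastQC, Trim Galore 0.4.1, Bismark 0.20.0 and methylKit 1.7.0, on GRCm38 (mm10). For each CpG position and strand, the authors deposited the count of reads and the methylated fraction; methylated counts were recovered as their product, rounded to whole numbers. No step removing PCR duplicates is named, so that errors from reads cover counting only, and p-values over mice the spread between these samples.

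Positions had at least 10 reads in each library compared and a coverage up to the 99.9th percentile. A logistic likelihood ratio test per CpG and per window of 1000 bp was run with Benjamini-Hochberg adjustment over all features (Python 3.11.15, numpy 2.4.6, scipy 1.17.1). It was tried on simulated reads in which all mice of a group shared the same level at a position. False calls that come from spread between mice were therefore not assessed. Tests over mice were exact permutation tests, 2-sided. The 6 genes matched the GRCm38.p6 RefSeq table by symbol or synonym. All called CpGs and windows of the genes were named or counted. The genes and lists were chosen with earlier results of these data known. Exon annotation was not used here. No 2 libraries differed by less than sampling noise. Alternatives were coverage minima of 5 and 20, an F test, shifted windows, other library names, a replicate block, equal weights for positions and each library left out.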

Additional observations from a re-analysis of the deposited data

Results flagged for a closer look

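In 3 of 36 groups of 5 mice, 1 mouse lay far from the other 4 in the level of a gene; chance alone flags about 1 in 20 such groups. Mars was at 6.34% in control F1 replicate 2, over the positions compared between SSCT F1 and control F1. Slc13a4 was at 73.6% in SSCT F2/P replicate 3, the mouse with 6.25% at position 35288720. Arfgef3 was at 59.96% in control F1 replicate 4, over the positions compared between SSCT F2/P and control F1.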

How the results depend on the processing

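In F0, 9 CpGs and 6 windows of the 6 genes were called. A minimum of 20 reads gave 2 and 1 (30 CpGs and 8 windows tested), the F test 0 and 0 (7 of 46 and 4 of 13 at an unadjusted p below 0.05, where 11.6% of all CpGs and 20.9% of all windows were; on simulated data this test made no call at 3 against 3 mice, so its 0 says nothing), and leaving out SSCT F0 replicate 3 at the same positions 5 and 3. Leaving out each library in turn gave 9 to 39 CpGs, the highest without SSCT F0 replicate 3, and 6 to 7 windows. In SSCT F1 against control F1, with 1 and 1 called, a minimum of 5 reads gave 6 and 2, a minimum of 20 reads 0 and 0, the F test 0 and 0, shifted windows 0, and 7 and 7 under both namings drawn from the study. Leaving out each library gave 1 to 4 CpGs, the highest without control F1 replicate 5, and 0 to 2 windows. In SSCT F2/M, with 6 and 1, a minimum of 5 reads gave 13 CpGs, a minimum of 20 reads 1 and 0, the F test 0 and 0, and the study's naming with F2 lines exchanged 2 CpGs. Leaving out each library gave 4 to 7 CpGs and 0 to 3 windows. In SSCT F2/P, with 9 and 4, a minimum of 20 reads gave 3 and 1, the F test 0 and 0, shifted windows 1, the study's naming 2 and 1, and with F2 lines exchanged 1 window. Leaving out each library gave 4 to 12 CpGs, the lowest without control F1 replicate 2, and 2 to 4 windows. Higher read minima test fewer positions; the cause of the other changes was not tested. Gene levels of SSCT F2/P against control F1 changed sign with positions weighted equally, from 0.616 to -1.01 percentage points in Pou2f2, from -3.97 to 0.0900 in Arfgef3 and from -1.59 to 0.133 in Tmprss9, none past the threshold.

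With the replicate block, 8 CpGs and 5 windows were called in F0, SSCT F1 had 1 and 1, SSCT F2/M had 6 and 1, and SSCT F2/P had 9 and 4. Mice of the same replicate number did not deviate together (r of -0.014 to 0.018), so that numbers do not pair the mice.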
